A study of Mus musculus with 3 samples.

Results

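Interferon-stimulated genes are a set of antiviral and regulatory genes that respond to interferon, a secreted alarm protein. Here 50 of them, from 55536 annotated genes, were chosen by a list of symbols: the IFIT, OAS, Mx, ISG15, IFITM, Schlafen, PARP, TRIM and related genes, with the GBP, IRG and Ifi200 families left out. Their levels were read in polyadenylated RNA of macrophages that had been grown in culture from C57BL/6J bone marrow. All 3 libraries carry the same label, 100 ng/ml lipid A for 0 minutes. Macrophages sense lipid A as the active end of bacterial lipopolysaccharide, so time 0 is the level before the stimulus could act. The libraries are biological replicates 1, 2 and 3 of 1 group; no agent, genotype or time sets them apart. The labels give sex and age as not collected and leave unsaid whether each culture had its own mouse, so part of the spread may be technical. With 1 group there is nothing to test, and every value below is a level, a spread or a fold between libraries.

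Type I interferon binds a receptor whose kinases phosphorylate transcription factors of the STAT family. These join IRF9 to form the complex ISGF3, which binds the interferon-stimulated response element in front of its target genes. Macrophages make a little interferon without infection, and this low, steady signal, called tonic, is known to keep many target genes partly on. The products cut viral replication at several steps, from entry at membranes to translation and the supply of nucleotides.

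The core of the response element is a GAAA pair with 2 free bases between, written GAAANNGAAA, which was searched on both strands of the RefSeq promoter table (build GRCm38.p6, 250 bases before and 50 after each start site). The stretches below show how these matches lie in front of the most abundant genes. Capitals mark the match, which reads TTTCNNTTTC where it lies on the other strand. Distances are given for the first base of a match, with the start site as 0. The first 4 are the genes of highest level with a match, and Isg15 and Oas1a were added after their values were seen because their matches overlap. Ifitm3 has its matches 2 and 19 bases after the start (chr7:141010716-141010742, minus strand), and only that stretch is printed. Ifitm2 has 1 match 46 bases before the start (chr7:140955978-140956027, minus strand). Bst2 has a pair of overlapping matches, 130 and 124 bases before (chr8:71537567-71537622, minus strand). Ifit3 has them 156 and 122 bases before (chr19:34583353-34583436, plus strand). Isg15 holds 3 in a row, 78, 72 and 66 bases before (chr4:156200855-156200916, minus strand). Oas1a has 2 overlapping matches, 20 and 14 bases before (chr5:120907526-120907565, minus strand).
Ifitm3: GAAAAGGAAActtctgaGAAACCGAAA
Ifitm2: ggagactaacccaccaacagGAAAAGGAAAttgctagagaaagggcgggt
Bst2: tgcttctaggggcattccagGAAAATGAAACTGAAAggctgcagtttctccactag
Ifit3: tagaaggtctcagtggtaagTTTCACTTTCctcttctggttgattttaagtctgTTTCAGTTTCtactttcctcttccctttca
Isg15: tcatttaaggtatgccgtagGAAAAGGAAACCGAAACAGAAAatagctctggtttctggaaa
Oas1a: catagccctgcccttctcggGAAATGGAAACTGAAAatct

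Close copies carry the same arrangement. The stretch of Ifit3b (chr19:34607749-34607832, plus strand) was equal to that of Ifit3 at 84 of 84 bases, and that of Oas1g (chr5:120887614-120887651, minus strand) to Oas1a at 38 of 38. Slfn2 and Samhd1 are the genes of highest level without a match in the window, and their last 100 bases before the start are shown for contrast (chr11:83065012-83065111, plus strand, and chr2:157135097-157135196, minus strand).
Slfn2: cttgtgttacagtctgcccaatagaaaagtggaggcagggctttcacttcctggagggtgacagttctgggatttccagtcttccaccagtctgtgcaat
Samhd1: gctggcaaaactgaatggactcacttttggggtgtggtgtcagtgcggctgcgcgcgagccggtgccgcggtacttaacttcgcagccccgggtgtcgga

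The promoter table held 40 of the 50 genes, and 19 of these 40 (47.5%) had a match, against 3.99% of the 27025 genes in the table and 4.07% of those also expressed here. Oas2, Mx1, Mx2, Usp18, Rtp4, Zbp1, Parp9, Parp14, Ifi27 and Tor3a had no entry. Upstream of the start site alone, 16 of 40 genes (40%) had a match, against 3.46% of genes. Of 33 matches (32 distinct sites, since alternative promoters of a gene were searched apart), 27 lay upstream, and the median position was 53 bases before the start. Genes with copies in 1 locus share promoter sequence, so these genes are not independent of one another. A match is a run of letters, not a measured binding site.

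**Figure D1:**
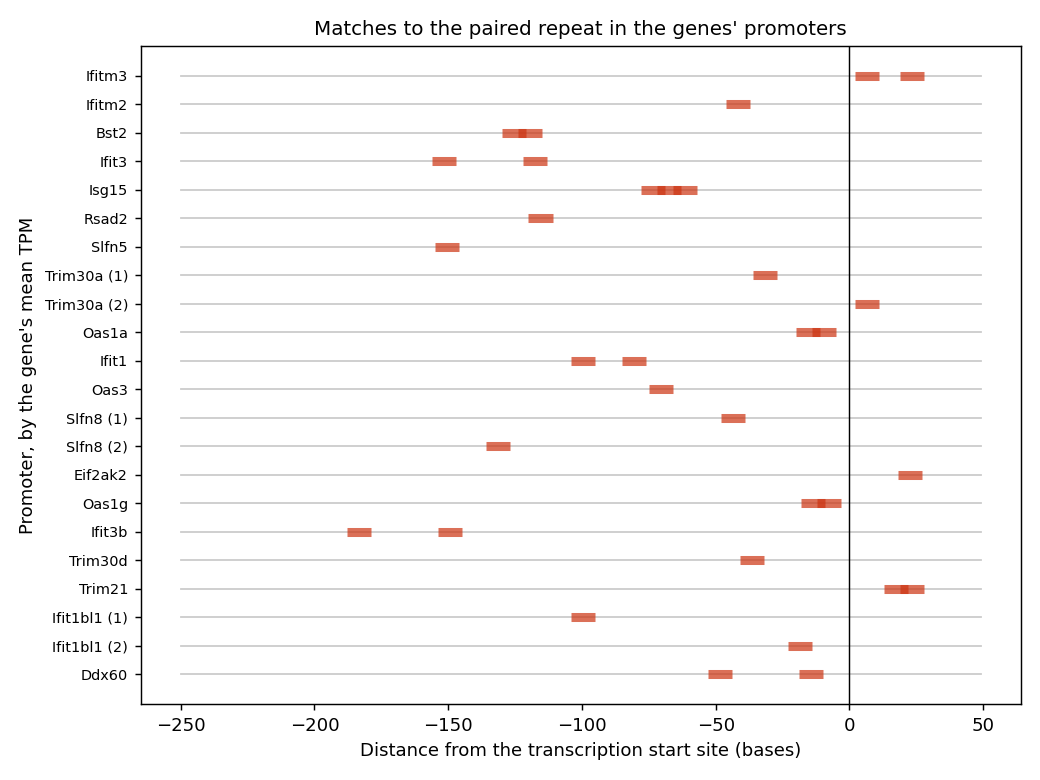
Position of each match to the paired GAAA repeat (red blocks) in the promoters of the 19 genes that have one, from 250 bases before to 50 after the transcription start site (vertical line at 0); the x axis is distance in bases and promoters are ordered by the gene's mean level, with numbers for alternative promoters of 1 gene. Of 33 matches, 27 lie before the start, matches of Isg15, Bst2, Oas1a, Oas1g and Trim21 overlap, and those of Ifitm3, Eif2ak2 and Trim21 and 1 of Trim30a lie after the start.

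All 50 genes were expressed. Each reached at least 1 TPM (a transcript level scaled to library size and corrected for transcript length) in every library, and 44 reached 10 TPM in every library. The mean over libraries ran from 4.69 TPM for Slfn1 to 1138 TPM for Ifitm3, with 18 genes over 100 TPM, 30 between 10 and 100 and 2 under 10. The median of the 50 means was 60.6 TPM, against 14.9 TPM for the 11886 genes that passed the filter on low counts. The 50 were chosen with earlier results of these data known, so these levels may partly follow from the choice, which was not tested. Of 39 protein-coding relatives by symbol outside the list, 12 were below 1 TPM in every library. The lowest count was 24, for Ifitm6 in replicate 1, so even the rarest gene was well above the 3 counts that a count of 0 allows.

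The levels were not even over the libraries. The genes took 0.505% of the counts in replicate 1 (95% Wilson interval 0.502 to 0.508), 1.36% in replicate 2 (1.35 to 1.36) and 0.604% in replicate 3 (0.602 to 0.606). Their median level was 44.4, 98.0 and 34.1 TPM in replicates 1, 2 and 3. The median of all genes that passed the filter was 15.3, 15.5 and 12.0 TPM, so TPM was lower in replicate 3 for genes at large. On the scaled counts used below, replicate 1 was lowest for 37 of the genes and replicate 3 for 13. The Wilson intervals cover counting error only. In bulk RNA, more cells with the programme on and more RNA per cell cannot be told apart.

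**Figure D2:**
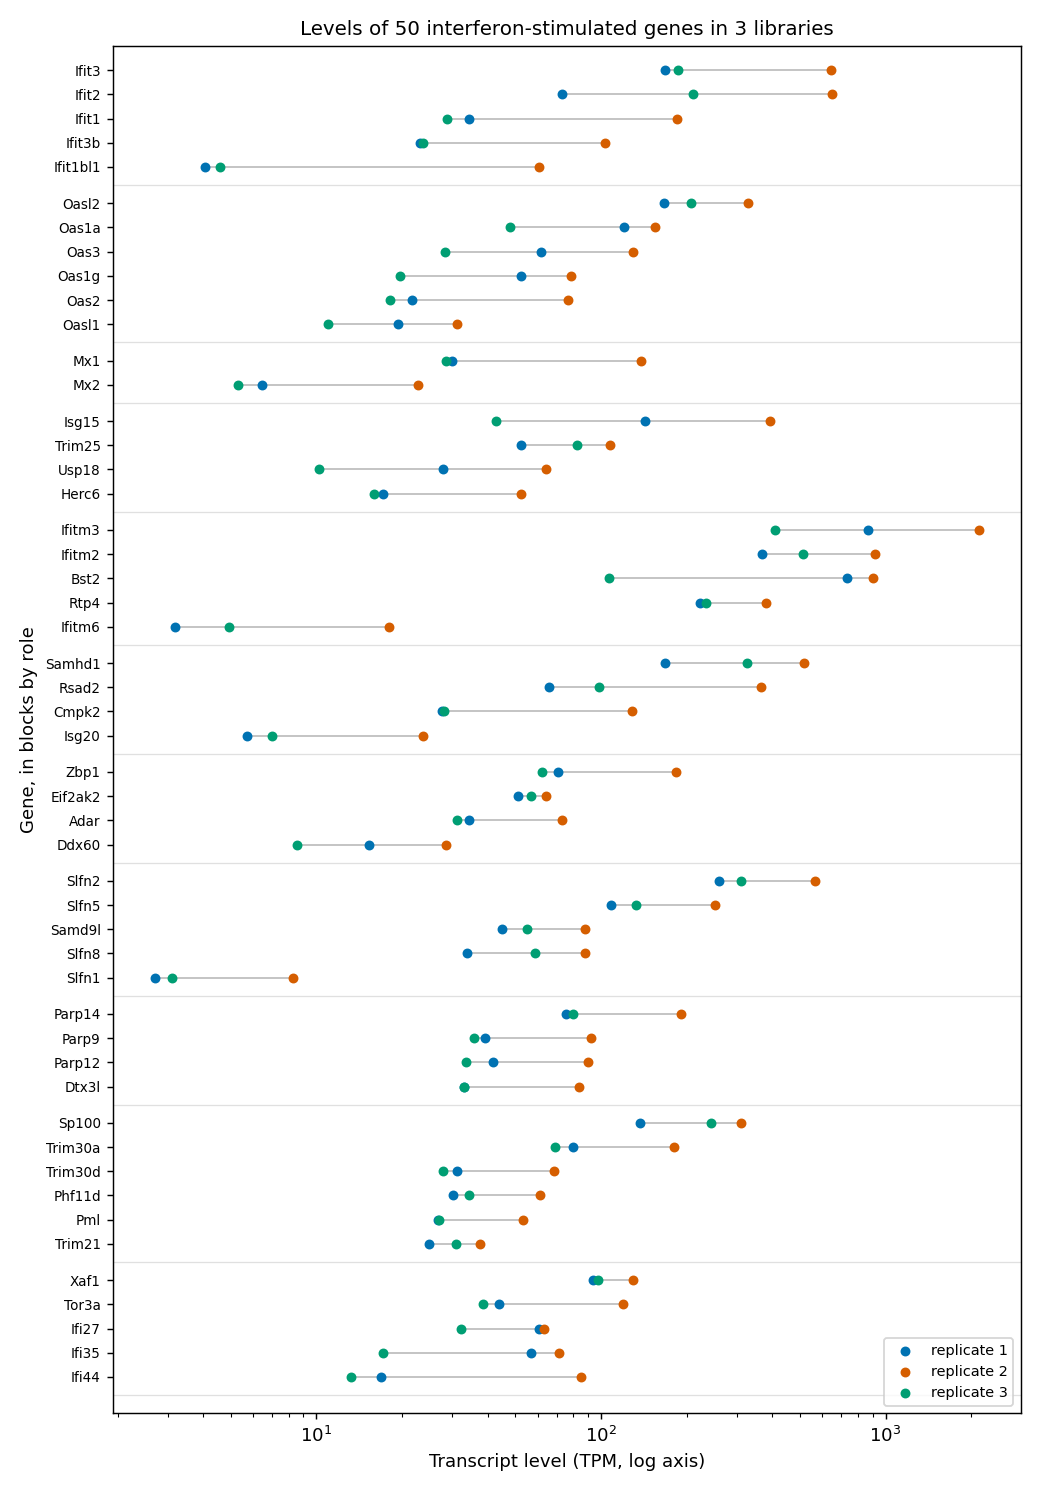
Level of each of the 50 genes in TPM (log axis) in replicates 1, 2 and 3, with genes in blocks by role (from top: IFIT, OAS, Mx, ISG15 system, membrane factors, nucleotide and RNA-degrading enzymes, double-stranded and Z-form nucleic acid proteins, Schlafen and Samd9l, PARP and Dtx3l, TRIM, PML body and Phf11d, other). Grey lines span the libraries. The orange point of replicate 2 is the highest in all 50 rows, and replicate 1 or 3 is lowest in 25 rows each. On the scaled counts used below, replicate 2 is highest for 47 genes, and replicate 1 is lowest for 37 and replicate 3 for 13.

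Folds between libraries were taken on counts scaled by TMM factors, which set the bulk of genes equal. A gene was counted for a library when it lay more than 2-fold above, or below, both others. In replicate 2, 24 of the 50 genes (48%) lay above both others, against 3.74% of all genes that passed the filter. In replicate 1 this was 0 of 50 (4.45% of all genes) and in replicate 3 also 0 (3.06%). Below both others were 4 genes in replicate 1 (4.12%), 0 in replicate 2 (3.74%) and 6 in replicate 3 (4.24%).

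Replicate 2 stood above replicate 1 by a median of 2.33-fold, with 49 of 50 genes higher and 34 of them by over 2-fold (9.92% of all genes). It stood above replicate 3 by 2.31-fold, with 48 higher and 30 by over 2-fold (10.3% of all genes). These comparisons share replicate 2. By scaled counts 47 of the 50 genes were highest in replicate 2, against 32.3% of all genes. The exceptions were Eif2ak2 and Sp100 (highest in replicate 3) and Ifi27 (highest in replicate 1). By TPM all 50 were highest in replicate 2, and the share of all genes on that scale is not given here. On the log2(TPM + 1) scale the median ratio of all genes was 0.095, 0.123 and -0.23 in replicates 1, 2 and 3. The libraries' largest and smallest values differed by over 2-fold for 41 of 50 genes, against 36.9% of all genes.

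**Figure D3:**
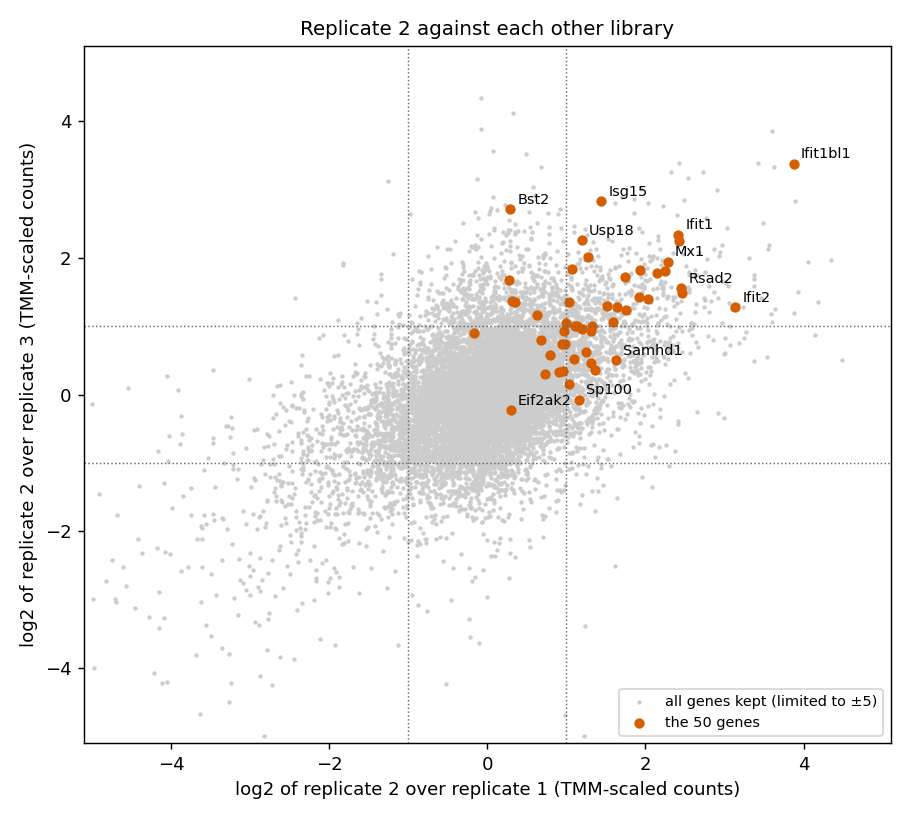
Each point is a gene, placed by the log2 fold of replicate 2 over replicate 1 (x axis) and over replicate 3 (y axis) on TMM-scaled counts; orange points are the 50 interferon-stimulated genes, grey points all 11886 genes that passed the filter, and dotted lines mark 2-fold. The 24 orange points beyond both dotted lines at the upper right are the genes over 2-fold above both other libraries, and both axes share replicate 2.

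The standard deviation of the log2 level over the 3 libraries had a median of 0.71 over the genes, against 0.41 over all genes, and was above the all-gene median for 47 of 50. Without replicate 2 the median was 0.36 for these genes and 0.35 for all genes. The excess spread was thus not seen without replicate 2. The libraries also differed in other measures, whose part in these levels was not tested. A ribosomal RNA gene took 9.75%, 1.88% and 2.50% of counts in replicates 1, 2 and 3, and mitochondrial genes 1.84%, 2.24% and 6.98%.

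The IFIT proteins bind foreign RNA by its end. All 5 IFIT genes lay over 2-fold above both others in replicate 2, with a median log2 ratio to the other libraries of 2.21, the highest of the 11 role groups. They sit side by side within chr19:34550694-34650009 (mm10). Ifit3, a scaffold for IFIT complexes and the most abundant, was at 168, 642 and 187 TPM in replicates 1, 2 and 3 (332 ± 269, SD, n = 3). Ifit1bl1, an Ifit1-like copy, was at 4.05, 60.4 and 4.58 TPM. Replicate 2 was thus 14.7-fold above replicate 1 and 10.4-fold above replicate 3, the widest spread among the 50 (SD of log2 2.11). Ifit2, chosen after its values were seen, was at 73.1, 648 and 210 TPM, and was the 1 IFIT gene in which replicate 1 was also over 2-fold below replicate 3.

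OAS enzymes sense double-stranded RNA and make short oligoadenylates, which lead to the breakdown of RNA. Of 6 genes, 2 (Oas2 and Oas3) were counted for replicate 2. Oasl2, an OAS-like protein with ubiquitin-like domains, was the highest and steadiest at 167, 328 and 208 TPM (234 ± 83.6, n = 3). Oas2 was the most variable at 21.7, 76.4 and 18.1 TPM, with replicates 1 and 3 close together. Oas1a (120, 155 and 47.7 TPM) and Oas1g (52.4, 78.5 and 19.7 TPM), close copies named after their values were seen, showed another order: replicates 1 and 2 were close and replicate 3 was low.

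Mx genes encode dynamin-like GTPases that trap viral particles. Common laboratory strains, C57BL/6 among them, are known to carry Mx alleles that give no full-length protein, so their RNA levels say nothing of working protein. Mx1 was at 29.8, 138 and 28.5 TPM and Mx2 at 6.43, 22.8 and 5.29 TPM. Both were over 2-fold above both others in replicate 2, and replicates 1 and 3 were close. In the RSEM-format tables the most abundant annotated form was a nonsense-mediated decay transcript for Mx1 (Mx1-205, 40.4% of its TPM). For Mx2 it was a polymorphic pseudogene transcript (63.7%). The kallisto-format tables put another nonsense-mediated decay transcript of Mx1 first (Mx1-203, 24.1%) and the same transcript of Mx2 (52.8%).

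ISG15 is a ubiquitin-like protein that is joined to other proteins by a chain of enzymes. Isg15 (chr4:156199424-156200818, minus strand) was at 142, 392 and 42.7 TPM (192 ± 180, n = 3). Replicate 2 was 2.72-fold above replicate 1 and 7.09-fold above replicate 3, and no pair of libraries was close. Usp18, which removes ISG15 and damps the interferon receptor, followed the same order at 27.8, 64.2 and 10.2 TPM. Herc6, the mouse ligase for ISG15, was also counted for replicate 2. Trim25, a ubiquitin ligase of the RIG-I pathway, was the steadiest of the group at 52.5, 107 and 82.3 TPM. Of the enzymes outside the 50, Uba7, which activates ISG15, was at 28.2, 109 and 23.0 TPM and was counted for replicate 2. Ube2l6, which carries ISG15 to the ligase, was at 76.7, 116 and 50.8 TPM and was not.

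Membrane factors held the highest levels of the programme. Ifitm3, which hinders the fusion of viruses in endosomes, was at 870, 2135 and 409 TPM (1138 ± 894, n = 3). Its replicate 2 was 2.42-fold and 4.02-fold above replicates 1 and 3. Bst2, or tetherin, which holds budding viruses at the cell surface, was at 731, 905 and 107 TPM (581 ± 420, n = 3). Replicates 1 and 2 differed by 1.22-fold and replicate 3 was 6.55-fold below replicate 2, a pattern unlike that of Ifitm3. Rtp4, a receptor transporter family protein, was steady at 223, 379 and 234 TPM. Ifitm6 was among the lowest of the 50, with 24, 145 and 81 counts, and with Ifitm3 was counted for replicate 2.

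The enzymes that act on nucleotides and RNA had 3 of 4 genes counted for replicate 2. Samhd1, which breaks down deoxynucleotides, was at 168, 517 and 326 TPM (337 ± 174, n = 3) and was the exception, with replicate 2 over replicate 3 by 1.42-fold. Rsad2, or viperin, which makes a chain-terminating nucleotide, was at 65.7, 364 and 98.1 TPM. Its neighbour Cmpk2, a nucleotide kinase named here after its values were seen, lies in the same stretch (chr12:26442746-26479837), and their log2 ratios in replicate 2 were 2.00 and 2.03. Isg20, an RNA exonuclease, was the third gene counted.

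Proteins that bind double-stranded or Z-form nucleic acid had 2 of 4 genes counted for replicate 2, Zbp1 and Ddx60. Zbp1, which can trigger cell death on Z-form nucleic acid, was at 70.5, 183 and 61.9 TPM. Eif2ak2, the kinase PKR that stops translation, was the steadiest of all 50 genes at 51.2, 64.0 and 56.9 TPM (57.3 ± 6.39, n = 3; SD of log2 0.26). Its libraries lay close together, and by scaled counts replicate 3 was the highest. Adar, which edits double-stranded RNA, lay just under the limit, with folds of 1.96 and 1.90 over replicates 1 and 3.

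Schlafen genes, with Samd9l, had 1 of 5 counted for replicate 2, Slfn1. Slfn2, known for keeping immune cells quiescent, was at 261, 565 and 310 TPM (379 ± 163, n = 3). Slfn1 had the lowest mean of the 50 at 2.70, 8.25 and 3.11 TPM. Samd9l, an antiviral and growth-restricting protein, was at 44.9, 88.2 and 55.1 TPM. In all 5 genes replicate 2 was the highest and replicate 1 the lowest.

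None of the 4 PARP and Dtx3l genes was counted for replicate 2, yet their median log2 ratio there was 1.10, the same as for all 50. Parp14, an ADP-ribosyltransferase, was at 75.4, 191 and 79.6 TPM. Dtx3l, a ubiquitin ligase that works with Parp9, was at 33.1, 83.9 and 33.0 TPM, and Parp12 at 41.8, 89.9 and 33.7 TPM. In each, 1 of the folds over replicates 1 and 3 was just under 2: Dtx3l was 2.49-fold and 1.999-fold, and Parp12 1.999-fold and 2.06-fold. Dtx3l and Parp9 overlap by 458 exonic bases on opposite strands. Whether counting used strand is not given in the sources used here, so reads there may be shared.

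Among the TRIM, PML body and PHF11 genes, 2 of 6 (Trim30a and Trim30d) were counted for replicate 2, both by a narrow margin with folds from 2.01 to 2.19. Sp100, a nuclear body protein, was at 137, 310 and 243 TPM (230 ± 87.4, n = 3). By scaled counts its replicates 2 and 3 were nearly equal (log2 fold -0.07) and replicate 1 was low. The gene total of Trim21, a cytosolic antibody receptor, was steady at 24.8, 37.6 and 30.9 TPM. Its main protein-coding transcript varied more, at 19.83, 32.21 and 11.35 TPM in replicates 1, 2 and 3. A transcript annotated as a retained intron, not as protein coding, was at 0.72, 0.58 and 17.62 TPM. The steady total thus does not hold for the coding form. Of the remaining 5 genes, Ifi44 and Tor3a were counted. Ifi44 was at 16.9, 85.0 and 13.2 TPM, and Xaf1, a pro-apoptotic partner of XIAP, was the steadiest of these at 93.5, 129 and 97.4 TPM.

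Replicates 3 and 1 differed less, and in both directions. By scaled counts the median fold of replicate 3 over replicate 1 was 1.21, with 37 genes higher and 13 lower. Of all 11886 genes, 5941 were higher. Over 2-fold higher in replicate 3 were 4 genes (9.8% of all genes passed this limit), namely Ifit2, Sp100, Samhd1 and Slfn8. Over 2-fold lower were 7 (11.4% of all genes). The lower ones were Bst2, at 5.36-fold below replicate 1, then Ifi35 (2.65-fold), Isg15 (2.61-fold), Ifi27 (2.10-fold), Oas1g and Usp18 (both 2.08-fold) and Oas1a (2.01-fold). These counts were thus near the background of all genes.

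The 7 lower genes have short transcripts, from 756 to 1885 bases with a median of 1334, and the 4 higher ones run from 1800 to 3807 bases. The 39 genes within 2-fold run from 655 to 7312 bases, with a median of 2684, and include both the shortest and the longest of the 50. Across all genes the shortest twentieth, with a median of 629 bases, had a median log2 fold of replicate 3 over 1 of -0.34, and the longest had 0.08. Over the 50 genes Spearman's rho of this fold with length was 0.19, and over all 11886 genes it was 0.12, as a description in which all points share the same libraries. Short genes are not all low in replicate 3, since Ifitm2 and Ifitm6, among the shortest, were higher there than in replicate 1. With each library centred on genes of like length, a setting added after seeing the data, 2 genes remained below both others in replicate 3 (Bst2 and Ifi35; 2.86% of all genes). The count above both others in replicate 2 was 22 (3.46% of all genes), 20 of them from the 24.

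**Figure D4:**
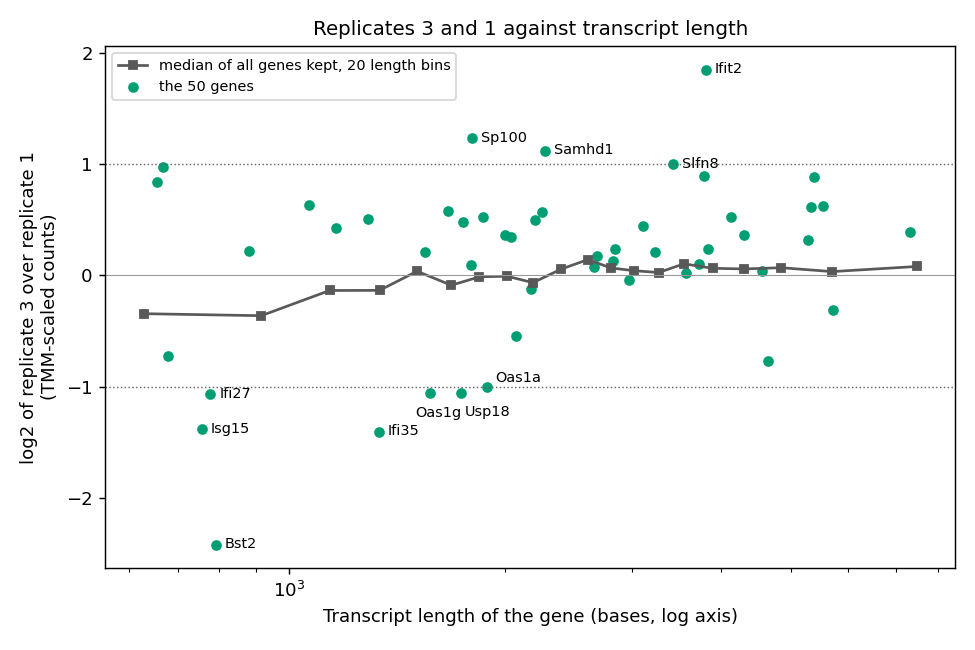
The log2 fold of replicate 3 over replicate 1 (y axis, TMM-scaled counts) against the transcript length of the gene in bases (x axis, log scale). Green points are the 50 genes, named where the fold exceeds 2 either way (dotted lines), and grey squares are medians of all genes in 20 length bins, which run from -0.34 for the shortest bin to 0.08 for the longest.

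Neighbours had like folds at some loci and not at others. In all, 27 of the 50 lie in 9 clusters of neighbours within 200 kb, and 23 lie alone. The log2 ratio of replicate 2 to the others was 1.88 to 2.11 for Mx1 and Mx2 (chr16:97447035-97560900), 1.08 to 1.16 for Parp14, Dtx3l and Parp9 (chr16:35832874-35972605) and 1.06 to 1.07 for Trim30a and Trim30d (chr7:104409025-104507849). Wider ranges were seen at the Ifit locus (1.68 to 3.63), for Ifitm2, Ifitm3 and Ifitm6 (0.89 to 1.98; chr7:140954837-141017924) and for Oas1a, Oas1g, Oas2 and Oas3 (0.85 to 1.73; chr5:120730333-120907521). The 19 genes with the promoter repeat had a median mean level of 82.5 TPM and a median log2 ratio in replicate 2 of 1.19, with 11 counted. The 21 without had 50.01 TPM and 0.98, with 7 counted. Their ranges overlapped widely, from 0.03 to 3.63 with the repeat and 0.54 to 2.33 without.

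The ligands were at or near 0. Of 18 type I interferon genes, 17 had 0 counts in every library in the RSEM-format tables, and Ifnb1 had 2, 2 and 3 counts (0.22, 0.21 and 0.15 TPM). The kallisto-format tables gave Ifnb1 7, 5 and 6 counts and Ifna16 1 count in replicate 2. The genes for interferon gamma and both lambda interferons had 0 counts, which allows up to 0.107, 0.101 and 0.0561 CPM (counts scaled to the library total) in replicates 1, 2 and 3. All 7 receptor and Janus kinase genes were above 1 TPM in every library. None was counted for replicate 2, against 3.74% of all genes, and a set of 7 is too small to differ from that share.

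Genes of the ISGF3 complex, which are targets of interferon too, were expressed in every library. Stat2 was at 76.1, 174 and 58.2 TPM, and Irf9 at 47.7, 58.4 and 39.3 TPM. Of the 8 genes in the list of ISGF3 and IRF factors, 7 were highest in replicate 2 and 2 (Stat2 and Irf1) were counted for it. Over all genes that passed the filter, 32.3% were highest in replicate 2 and 3.74% were counted. Irf1, named because it was 1 of these 2, was at 30.9, 137 and 54.4 TPM. Among 9 nucleic acid sensors and adaptors, 8 were highest in replicate 2 and 2 were counted. Of 5 negative regulators, 4 passed the filter and 1 was counted. Of 5 genes associated with interferon gamma, 4 passed the filter and 3 were counted for replicate 2, although only 1 of the 5 reached 1 TPM in every library. Cxcl9, 1 of these 3, was equal in replicates 2 and 3 by TPM (0.62, 1.56 and 1.56 TPM).

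Macrophage markers were all present, with 10 of 10 above 1 TPM in every library and sums of 23517, 38989 and 20581 TPM. Most of the sum was Lyz2, and the others did not move as one: Cd68 was at 2937, 3004 and 5864 TPM and Itgam at 169, 85.1 and 88.4 TPM. Plasmacytoid dendritic cells, a main source of interferon in which Bst2 is known to be high, had 3 of 10 markers at that level, with sums of 143, 125 and 152 TPM that were nearly all Lair1 and Tcf4. Of the 6 that passed the filter, Siglech, Ccr9 and Spib, all low, lay over 2-fold above both other libraries in replicate 3. In that library 3.06% of all genes did so. Siglech was at 0.42, 0.91 and 1.96 TPM, Ccr9 at 0.23, 0.29 and 0.81 TPM, Spib at 0.21, 0.26 and 0.78 TPM and Klk1 at 0, 0 and 0.20 TPM. Others had another order by TPM. Lair1 was highest in replicate 1, at 108.28, 70.17 and 102.47 TPM. Tcf4 (30.98, 49.82 and 41.35 TPM) and Pacsin1 (0, 0.17 and 0.1 TPM) were highest in replicate 2. The 10 neutrophil markers summed to 172, 36.3 and 338 TPM, with Ly6g at 0, and the 6 megakaryocyte markers to 2451, 320 and 576 TPM, nearly all of it Pf4, which macrophages can also express. Both sums were lowest in replicate 2. The 7 B cell markers summed to 2.75, 30.4 and 19.2 TPM, with Pax5 at 0, 0.01 and 0.02 TPM. Most of the sum in replicates 2 and 3 was Ighm, at 1.16, 27.9 and 15.7 TPM in replicates 1, 2 and 3. In replicate 1 Cd79b was higher, at 1.48 TPM. Monocyte markers summed to 24.6, 39.1 and 34.1 TPM. Of the 6 that passed the filter, Vcan and Plac8 were over 2-fold above both others in replicate 2 (3.74% of all genes). Treml4 was over 2-fold below both others there (3.74%). Conventional dendritic cell markers summed to 4.96, 7.84 and 4.89 TPM and stromal markers to 8.51, 5.86 and 4.67 TPM. T and NK cell and erythroid markers summed to at most 1.75 TPM. The part of all these markers in the levels of the 50 genes was not tested.

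Some values depend on how reads are divided between copies. The share of 31-base words also found in other genes was 68.8% for Oas1a and 55.1% for Oas1g, 61.8% for Ifit3 and 55.2% for Ifit3b, and 55.5% for Ifitm2, and it was over 10% for 16 of the 50. Summed levels do not need that split. Ifit3 with Ifit3b came to 191, 746 and 211 TPM, and Oas1a with Oas1g to 172, 234 and 67.4 TPM, so the patterns of the pairs were those of their members. The kallisto-format tables gave lower TPM by a like factor for these genes and for all genes (medians of 0.771 and 0.758 in replicate 1, 0.748 and 0.765 in replicate 2, 0.951 and 0.965 in replicate 3). None of the 50 genes differed by over 2-fold in TPM between the formats.

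Most genes were read from 1 main transcript. The most abundant transcript took a median of 90.05% of the gene's TPM, at least 90% in 25 genes and under 50% in 10, and it was the same in both formats for 47 of 50. For 5 genes it was not annotated as protein coding: Oas1g, Oasl2, Mx1, Mx2 and Xaf1. Adar, chosen after its values were seen, was 1 of the 3 genes on which the formats differed. The RSEM-format tables put Adar-203 first on average (52.5%, 51.3% and 31.9%), and the kallisto-format tables put Adar-201 first (48.4%, 39.4% and 59.1%). Trim21, Ifitm6 and Ifi27, also chosen after, had the widest spread of this share over libraries. Trim21-201 took 79.9%, 85.8% and 36.8%, Ifitm6-201 took 56.3%, 96.5% and 97.4%, and Ifi27-201 took 53.3%, 34.8% and 12.2%.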

How the data were processed

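Expected counts and TPM per gene and transcript were deposited by the authors in RSEM-format tables, and estimated counts and TPM per transcript in kallisto-format tables, per the file headers. The deposited file lists name build mm10 and annotation GENCODE M21. The strand setting, like the aligner and versions, is not given in the sources used here. Library totals were 27946070, 29779410 and 53447437 counts. Entries that name no gene held 0.131%, 0.122% and 0.0843% and were left out.

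Expected counts were rounded, filtered by filterByExpr and scaled by TMM in edgeR 4.0.16 (R 4.3.3), with prior count 0.5. The ratio of a library is its log2 value minus the mean of the other 2. Counts of genes past 2-fold are descriptions beside the share of all 11886 genes passing the filter, since 1 group allows no test. The ratio code was tested on simulated data. Levels between genes were compared in TPM. Promoters came from RefSeq (GRCm38.p6), matched by symbol. Shared sequence was counted in 31-base words of the annotated transcripts.

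The genes and lists were chosen with earlier results of these data known. Per-library values are given for the highest, most variable and steadiest gene of each role group and for set pathway genes, Usp18 included; others are said to be chosen after seeing their values, except in counts and in the comparison of replicates 3 and 1. Alternatives were DESeq2 1.42.0 size factors, library totals, no filter, posterior mean and kallisto-format counts, TPM with pseudocounts 1 and 0.1, other fold limits and prior count, each library left out and, added after seeing the data, centring by transcript length. Protein sequences were not used here, and results of some genes are not reported here.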

Additional observations from a re-analysis of the deposited data

How the results depend on the processing

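No paired analysis was possible because there is 1 group. Of 124 alternative values for 15 results, 106 stayed within the limits set for the result. Those limits differ between results and are not given here. The fall of the median standard deviation from 0.71 to 0.36 without replicate 2 was counted as within them. The share of the main transcript, 90.05% against 85.0%, was not. The 106 is thus no measure of how stable the results are. The 24 genes above both others in replicate 2 (3.74% of all genes) became 8 at a 3-fold limit. With a library left out only 1 other remains, so the rule becomes a fold between 2 libraries, which more of all genes pass. The 24 then became 34 without replicate 3 (9.92% of all genes) and 30 without replicate 1 (10.3%). Shares of all genes at the 1.5-fold and 3-fold limits are not given here. The 4 genes below in replicate 1 became 2 by library totals, 1 on either TPM scale, 11 at 1.5-fold and 1 at 3-fold. They became 4 without replicate 2 (9.8% of all genes) and 34 without replicate 3 (9.92%). The 6 below in replicate 3 became 1 at 3-fold and 2 when centred by length. They became 7 without replicate 2 (11.4% of all genes) and 30 without replicate 1 (10.3%). The counts above in replicates 1 and 3 were 0 to 7 and 0 to 4 with a library left out. The 7 and the 4 were seen without replicate 2, where 11.4% and 9.8% of all genes passed. The median log2 ratio in replicate 1 was -0.83 and ranged from -1.22 to -0.28 with a library left out. In replicate 3 it was -0.45 and ranged from -1.21 to 0.28, the sign turning without replicate 2, where only replicate 1 is left to compare with. For replicate 2 it was 1.10 and ranged from 1.05 to 1.30 over all settings. The median level of 60.6 TPM was 39.4 TPM without replicate 2. The median ratio of kallisto-format to RSEM-format values was 0.822 for TPM and 1.27 for counts, and the median share of the main transcript was 90.05%, 85.0% in the kallisto-format tables and 98.6% among protein-coding transcripts. The cause of these shifts was not tested. On the log2(TPM + 1) scale the median ratio of all genes was 0.095, 0.123 and -0.23 in replicates 1, 2 and 3, so ratios there are read relative to it. With 3 libraries of 1 group, no value above carries a test. Depth limits the rarest genes, such as Ifitm6 with 24 counts in replicate 1, and the split between copies is an added limit for Oas1a, Oas1g, Ifit3, Ifit3b and Ifitm2.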

Other observations

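Relatives of these genes outside the 50 were taken by symbol and chosen after their values were seen. Of 39 protein-coding relatives, 24 reached 1 TPM in every library, 12 were below it in every library and 5 had 0 counts, among them Ifi44l. Of the 27 that passed the filter, 7 were over 2-fold above both others in replicate 2, against 3.74% of all genes. The 7 were Ifitm1, Parp10, Parp11, Phf11a, Phf11c, Trim30b and Trim30c. Ifitm1, a cell surface relative of Ifitm3, was at 3.74, 15.3 and 3.62 TPM in replicates 1, 2 and 3. Trim30c was at 6.99, 36.5 and 11.7 TPM. Ifi27l2a was instead highest in replicate 1 by TPM, at 431, 380 and 146 TPM, with the low value in replicate 3 that Ifi27 also showed. Herc3 was highest in replicate 1 too, at 9.04, 3.48 and 2.44 TPM, and Cmpk1 in replicate 3, at 112, 76.6 and 225 TPM.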
